A study of Mus musculus with 4 samples.

Results

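Skeletal muscle contractile and metabolic genes were followed in RNA of whole mouse mammary tissue. The set comprised 46 genes: fast and slow isoforms of the contractile proteins, other sarcomere components not assigned here to a fibre type, and genes of calcium handling and energy supply. Members were matched by exact gene symbol in the platform's probe annotation. All 46 were found, through 83 probe sets, among 18193 named genes on the array. Where a gene had several probe sets, the one brightest on average over the 4 arrays stood for it. The choice did not use the difference between genotypes, but the set was drawn up with results of these data known.

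The tissue came from 2 wild-type mice (labelled STAT5 WT) and 2 mice labelled STAT5 KO, 1 Affymetrix array for each mouse, collected at 6 days by the design text, which does not name the event counted from. No mouse received a treatment per the labels. The sources used here give no deleted allele, no Cre line, and neither strain nor age, so what limits these mice as a model beyond their number is not known here. Stat5a signals were 2307 and 2061 in WT against 1836 and 861 in KO, and Stat5b signals were 1522 and 1506 against 1069 and 712. Both genes were lower on both KO arrays, and neither passed the test (limma adjusted p = 0.246 and 0.102). The labels do not say which part was deleted, so a probe set outside it would not check the genotype. Array medians lay between 121.2 and 131.2. Epithelial Krt8 (4378 to 7431) and Epcam (4233 to 9145) and the adipocyte gene Adipoq (17022 to 19208) were far above those medians on every array, so the defining genes of mammary tissue were present.

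A skeletal muscle fibre shortens when myosin heads pull on actin filaments within the sarcomere. Calcium released from the sarcoplasmic reticulum binds troponin C, and the troponin complex then shifts tropomyosin and exposes actin. Fast and slow fibres use different genes for myosin, the light chains and the troponins, so these genes tell fibre types apart. Mammary epithelium and fat do not form sarcomeres. In the mouse the gland lies in a fat pad against the skin muscle and the muscles of the body wall. In RNA of whole tissue, more muscle fibres in a sample and more of a transcript in each fibre cannot be told apart.

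Most members gave higher signals on the KO arrays. Of the 46, 33 had both KO signals above both WT signals, or 71.7%, against 23.3% of all named genes. None lay lower on both KO arrays, against 24.8% of all named genes, and the other 13 overlapped. The median log2 difference between KO and WT was 1.0 over the members and -0.01 over all named genes, on the scale log2(signal + 16), which understates the change of dim genes. By direction, 39 members had a positive and 7 a negative difference, and 23 reached at least 2-fold on that scale.

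Fewer passed the test. Probe sets at or above the median mean log2 value were tested, a signal of about 126, and 21 members entered. Past a limma adjusted p of 0.05, 6 rose (Myh4, Tnnc2, Myh1, Eno3, Pvalb and Tnni2), 0 fell and 15 gave no call, where 1.21% of tested genes were called higher and 1.36% lower. Of the 21 members, 9 had both WT signals below the array medians and so entered through their KO signals. Among the 6 called, these were Myh4, Tnnc2, Myh1, Pvalb and Tnni2. The number called is therefore no support for the set. With no filter 0 members passed in limma, where 0.0715% of named genes were called higher and 0.077% lower. There the limma adjusted p was 0.0682 for Myh4, 0.105 for Tnnc2 and 0.111 for Eno3. It was 0.124 for Myh1, 0.134 for Pvalb and 0.138 for Tnni2. At an unadjusted limma p under 0.05 in that fit, 27 members were higher and 0 lower, against 8.05% and 8.89% of named genes. The number called was 2 without WT replicate 2, 2 without KO replicate 1, 8 without WT replicate 1 and 9 without KO replicate 2.

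**Figure D1:**
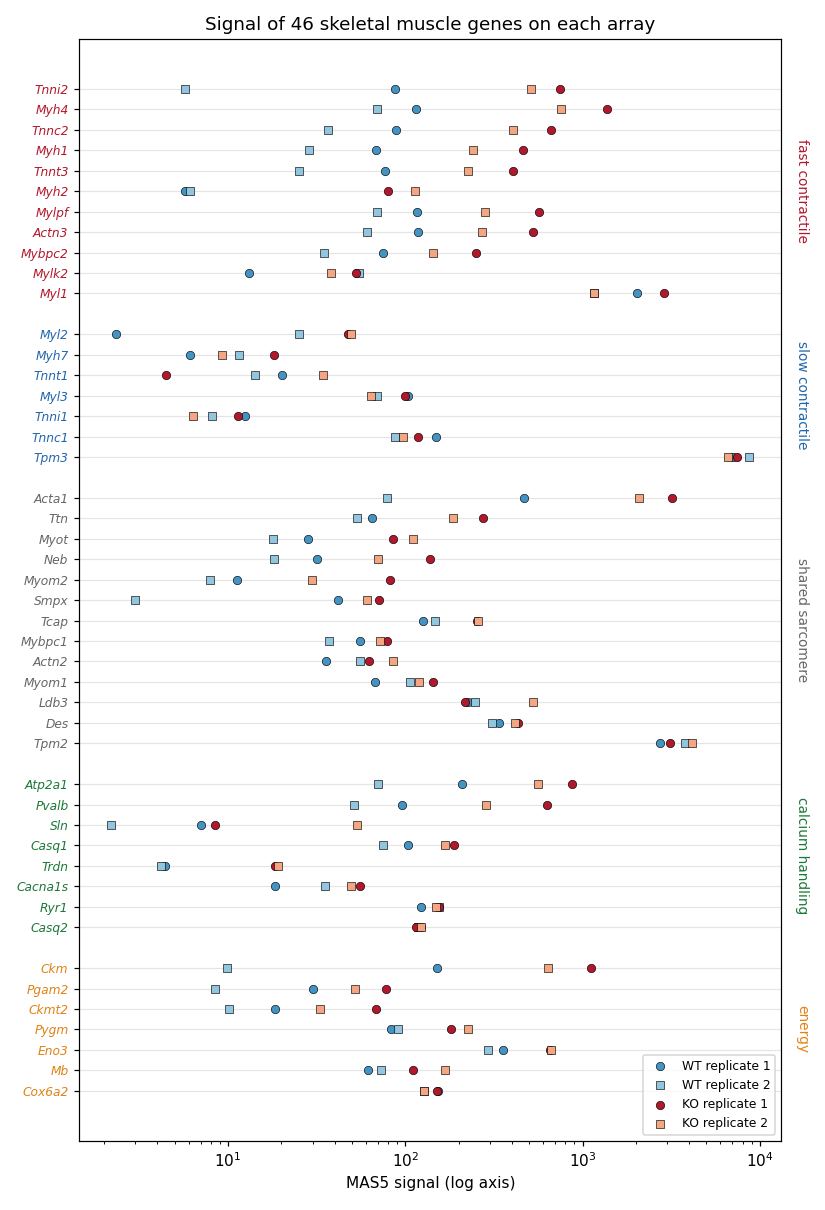
MAS5 signal (log axis) of each of the 46 genes on the 4 arrays, grouped by role and ordered within a group by the log2 difference between KO and WT. Circles are replicate 1 and squares replicate 2, blue for WT and red or orange for KO. In the fast contractile group 9 of 11 genes have both KO points to the right of both WT points, and in the slow group 1 of 7. Over all named genes the share is 23.3%.

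Fast myosin heavy chains were among the largest differences. The genes Myh2, Myh1 and Myh4 encode the motor proteins of types IIa, IIx and IIb fibres and lie in one cluster on chromosome 11. Their promoter windows are shown because all 3 neighbours were higher on both KO arrays. Each runs from 250 bases before to 50 after the annotated start (RefSeq, build GRCm38.p6). Capitals mark matches, on either strand, to the TATA box (TATAAA) and to the CArG box, the site of serum response factor.
Myh2 (chr11:67170777-67171076, + strand): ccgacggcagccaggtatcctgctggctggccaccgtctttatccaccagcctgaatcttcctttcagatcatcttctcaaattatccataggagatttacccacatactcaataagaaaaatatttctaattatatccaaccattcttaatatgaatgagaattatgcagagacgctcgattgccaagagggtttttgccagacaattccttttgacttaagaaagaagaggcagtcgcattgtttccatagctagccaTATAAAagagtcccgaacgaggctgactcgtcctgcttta
Myh1 (chr11:67199852-67200151, + strand): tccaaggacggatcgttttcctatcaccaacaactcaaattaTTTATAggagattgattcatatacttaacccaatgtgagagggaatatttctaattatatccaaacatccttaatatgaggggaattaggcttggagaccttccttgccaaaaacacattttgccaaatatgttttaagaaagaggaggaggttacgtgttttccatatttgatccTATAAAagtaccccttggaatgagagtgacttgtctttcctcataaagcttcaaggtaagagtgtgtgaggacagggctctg
Myh4 (chr11:67237562-67237861, + strand): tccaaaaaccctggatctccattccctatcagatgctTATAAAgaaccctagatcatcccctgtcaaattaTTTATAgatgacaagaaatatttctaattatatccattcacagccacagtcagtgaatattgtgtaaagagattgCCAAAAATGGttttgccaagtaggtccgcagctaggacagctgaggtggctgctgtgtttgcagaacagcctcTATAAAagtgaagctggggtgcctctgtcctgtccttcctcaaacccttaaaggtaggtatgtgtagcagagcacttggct

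The match nearest the start lay 32 bases before it in Myh1 and 31 in Myh4, whose windows held TATAAA further upstream as well, and the Myh2 window held it 10 bases after. Myh4 alone of the 3 held a CArG box, 104 bases before its start. These are matches of letters and show no binding.

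Myh4 stood at 115 and 69.3 on WT replicates 1 and 2 and at 1376 and 756 on KO replicates 1 and 2. Its mean signal was 92 ± 32 in WT and 1066 ± 438 in KO (SD, n = 2), 11.6 times higher. The groups did not overlap, and the log2 difference was 3.30 ± 0.33 (SE) (limma adjusted p = 0.0138). Its call was lost with no filter and without WT replicate 2. Myh1 gave the same picture. Myh1 stood at 68.0 and 28.6 in WT and at 459 and 240 in KO, a log2 difference of 2.51 ± 0.40 (SE) (limma adjusted p = 0.0395). The order of the 4 arrays was the same as for Myh4, with KO replicate 1 highest and WT replicate 2 lowest. The Myh1 call was lost with no filter, with no trend in the variance and without WT replicate 2. Myh2 was near the floor of the array in WT, at 5.70 and 6.07, and at 80.0 and 113 in KO. It lay below the filter, and the fit with no filter gave a log2 difference of 2.35 (limma adjusted p = 0.0877). With such dim WT signals the size depends on the pseudocount, from 1.19 at 64 to 3.81 at 1. Unlike Myh1 and Myh4 it was higher on KO replicate 2 than on KO replicate 1.

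Each fast troponin gene was also higher on both KO arrays, and Tnnc2 and Tnni2 rose. Tnnc2 encodes the calcium sensor of fast fibres and Tnnc1 that of slow fibres and heart. Their promoter windows are shown, from the same build and over the same distances, as an example of a fast and slow pair with both windows at hand. Capitals mark the E-box (CANNTG), the site of the MyoD family of muscle regulators.
Tnnc2 (chr2:164779685-164779984, - strand): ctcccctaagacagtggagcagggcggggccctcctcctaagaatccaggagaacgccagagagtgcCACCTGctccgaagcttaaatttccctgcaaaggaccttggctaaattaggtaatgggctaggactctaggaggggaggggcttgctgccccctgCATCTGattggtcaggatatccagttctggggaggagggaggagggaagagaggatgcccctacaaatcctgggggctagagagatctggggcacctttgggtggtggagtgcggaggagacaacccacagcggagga
Tnnc1 (chr14:31208062-31208361, + strand): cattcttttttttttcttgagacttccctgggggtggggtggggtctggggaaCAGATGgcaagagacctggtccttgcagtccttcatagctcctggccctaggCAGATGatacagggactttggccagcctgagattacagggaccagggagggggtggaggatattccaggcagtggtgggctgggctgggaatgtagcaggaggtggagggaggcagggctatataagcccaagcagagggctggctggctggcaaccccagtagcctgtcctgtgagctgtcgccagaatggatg

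Each window held 2 E-boxes, at 183 and 88 bases before the start in Tnnc2 and at 197 and 145 in Tnnc1. Tnnc2 signals were 88.4 and 36.8 in WT against 664 and 406 in KO. The mean rose from 62.6 ± 36.5 to 535 ± 183 (SD, n = 2), with a log2 difference of 2.85 ± 0.38 (SE) (limma adjusted p = 0.0297). The call was lost with no filter and without WT replicate 2. Tnni2, the fast inhibitory subunit, stood at 87.3 and 5.69 in WT and at 747 and 512 in KO. The log2 difference was 3.75 ± 0.66 (SE) (limma adjusted p = 0.0472). WT replicate 2 lay far below WT replicate 1, and the difference ran from 2.62 without WT replicate 2 to 4.87 without WT replicate 1. The call was lost with no filter, with no trend and after quantile normalization. Tnnt3, the fast tropomyosin-binding subunit, was at 76.8 and 25.1 in WT and at 405 and 227 in KO, but lay just below the filter. With no filter its log2 difference was 2.37 (limma adjusted p = 0.143).

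The other fast contractile genes fell into 2 kinds. Mylpf, the phosphorylatable light chain of fast myosin, stood at 116 and 69.4 in WT and at 568 and 280 in KO (log2 difference 1.97, limma adjusted p = 0.0517). Actn3, the Z-disc alpha-actinin restricted to fast fibres, stood at 118 and 60.9 in WT and at 523 and 270 in KO (1.96, limma adjusted p = 0.0554). Mybpc2, the fast myosin-binding protein C, stood at 75.2 and 35.0 in WT and at 252 and 143 in KO, below the filter (1.60). In these 3 the KO signals lay above both WT signals and KO replicate 1 was highest, and none passed. Myl1, the essential light chain of fast myosin, was bright on every array and did not separate the genotypes, at 2026 and 1161 in WT and 2872 and 1166 in KO. Its log2 difference was 0.25 ± 0.43 (SE) (limma adjusted p = 0.799), and it was -0.39 without KO replicate 1. Mylk2, the skeletal myosin light chain kinase, was dim and overlapped, at 13.1 and 54.6 against 52.4 and 38.3. Over the 11 fast contractile genes 9 were higher without overlap (81.8%, against 23.3% of all named genes) and the median log2 difference was 2.35. It was 2.46 for KO replicate 1 and 1.98 for KO replicate 2 against the WT mean.

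Slow contractile genes were nearly level as a group. Their median log2 difference was -0.08 over 7 genes (0.01 after quantile normalization), with 0.06 for KO replicate 1 and -0.21 for KO replicate 2. Myh7, the slow myosin heavy chain, stood at 6.08 and 11.5 in WT and at 18.1 and 9.24 in KO. Tnni1, the slow inhibitory troponin, stood at 12.5 and 8.11 in WT and at 11.4 and 6.38 in KO. Tnnt1, the slow tropomyosin-binding troponin, stood at 20.1 and 14.2 in WT and at 4.45 and 34.3 in KO. All 3 were dim on every array and the genotypes overlapped. Tnnc1, at 149 and 87.8 in WT and 118 and 97.1 in KO, and Myl3, the slow essential light chain, at 104 and 69.6 in WT and 99.5 and 64.3 in KO, also overlapped. Tpm3, a tropomyosin of slow fibres that many other cells also make, was at 7026 and 8748 in WT and 7432 and 6656 in KO (-0.16, limma adjusted p = 0.612, and 0.02 averaged over its probe sets). Myl2, the slow regulatory light chain, was the 1 slow gene whose groups did not overlap, at 2.34 and 25.2 in WT and 47.5 and 49.2 in KO. Its log2 difference was 1.23 (limma adjusted p = 0.289 with no filter). Signals of 5 of the 7 slow genes, Myl2 among them, were below the array medians on all 4 arrays, so small changes in them may be missed.

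**Figure D2:**
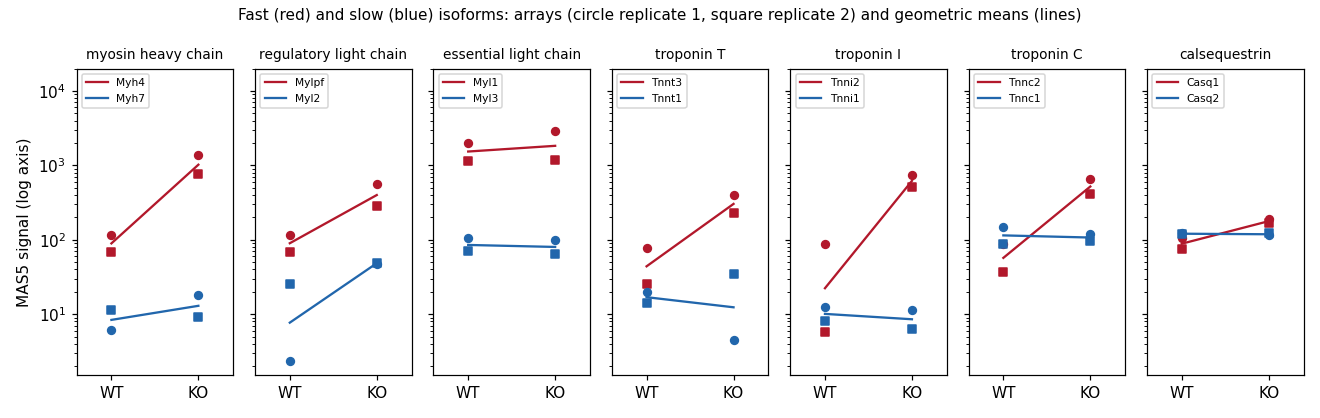
MAS5 signal (log axis) of the fast (red) and slow (blue) gene of 7 protein families in WT and KO, with 1 point for each array and a line between geometric means. The fast lines climb for the myosin heavy chain, regulatory light chain, troponin and calsequestrin families, and of the slow lines that of Myl2 climbs most. Heights of different genes come from different probe sets and are not comparable.

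Set side by side within a family, the fast gene had the larger log2 difference in 7 of 7 families, and in 5 of the 7 it did so in every setting. The families were set up after the fits. Myh4 stood for the fast heavy chains, with a larger difference (3.30) than Myh1 (2.51) or Myh2 (2.35). Myosin-binding protein C was not among the 7, since Mybpc1 was kept with the shared sarcomere genes. Mybpc1 differed by 0.57, and by 0.82 and 1.09 on its other probe sets, against 1.60 for Mybpc2. Mylpf was below Myl2 at a pseudocount of 1 (2.14 against 2.40) and without WT replicate 2 (1.65 against 1.81). Without KO replicate 1, Myl1 was below Myl3 (-0.39 against -0.34). The gap was 3.83 for troponin I, 3.04 for the myosin heavy chain (Myh4 and Myh7), 2.94 for troponin C and 2.42 for troponin T. It was smaller for calsequestrin at 0.91, for the regulatory light chain at 0.74 and for the essential light chain at 0.33. The median of the fast genes exceeded that of the slow genes by 2.42, and by 2.39 on KO replicate 1 and 2.19 on KO replicate 2. Between the arrays of one genotype the same gap was 0.55 in WT and 0.55 in KO. It was 1.62 with a pseudocount of 64 and 2.85 with a pseudocount of 1. The fast and slow groups were compared by description, with no test, since 2 against 2 arrays cannot give an exact permutation p below 0.333 and members are not replicates.

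Other sarcomere genes, labelled shared sarcomere in the plots and not split by fibre type, had a median between those of the fast and slow groups. Of 13, 11 were higher without overlap (84.6%, against 23.3% of all named genes), and the median was 0.83. Of the 5 that entered the test 0 passed in limma. At an unadjusted limma p under 0.05 with no filter, 7 of the 13 were higher, against 8.05% of all named genes. Acta1, the skeletal actin of the thin filament, stood at 466 and 78.4 in WT and at 3185 and 2088 in KO. The KO signals were well above both WT signals, which themselves lay far apart, and the log2 difference was 3.60 ± 0.68 (SE) (limma adjusted p = 0.0521). Acta1 passed without any 1 of WT replicate 1, WT replicate 2 and KO replicate 2, and with a pseudocount of 64. Ttn, the giant spring protein titin, was at 65.2 and 53.1 in WT and at 274 and 187 in KO (1.70). Neb, the thin filament ruler nebulin, was at 31.7 and 18.1 in WT and at 137 and 70.3 in KO (1.51). Myot, a Z-disc protein, was at 28.4 and 18.0 in WT and at 85.5 and 111 in KO (1.55). These 3 lay below the filter, with adjusted limma p of 0.121, 0.187 and 0.141 when no filter was set.

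Myom2, an M-band protein, stood at 11.2 and 7.91 in WT and at 81.6 and 29.7 in KO (1.39). Smpx, a small protein of muscle and other stretched cells, stood at 41.9 and 2.97 in WT and at 70.8 and 61.2 in KO (1.31). Tcap, which caps titin at the Z-disc, gave closely matched KO signals of 255 and 256 against 126 and 147 in WT (0.83, limma adjusted p = 0.0811). In these 3 the genotypes did not overlap. Tcap did not pass, and Myom2 and Smpx lay below the filter. The smaller differences were those of Mybpc1 (0.57), Actn2 (0.55), Myom1 (0.54) and Des (0.38), all without overlap. Des encodes the intermediate filament desmin, which smooth muscle also makes, and stood at 337 and 307 in WT and 430 and 418 in KO. Tpm2, a tropomyosin that smooth muscle and myoepithelial cells make as well, was bright and overlapped, at 2727 and 3774 in WT and 3116 and 4146 in KO. Ldb3, a Z-disc adaptor, was high on 1 array alone by its brightest probe set. It stood at 226 and 248 in WT and at 218 and 526 in KO. Its difference of 0.50 was -0.11 without KO replicate 2.

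**Figure D3:**
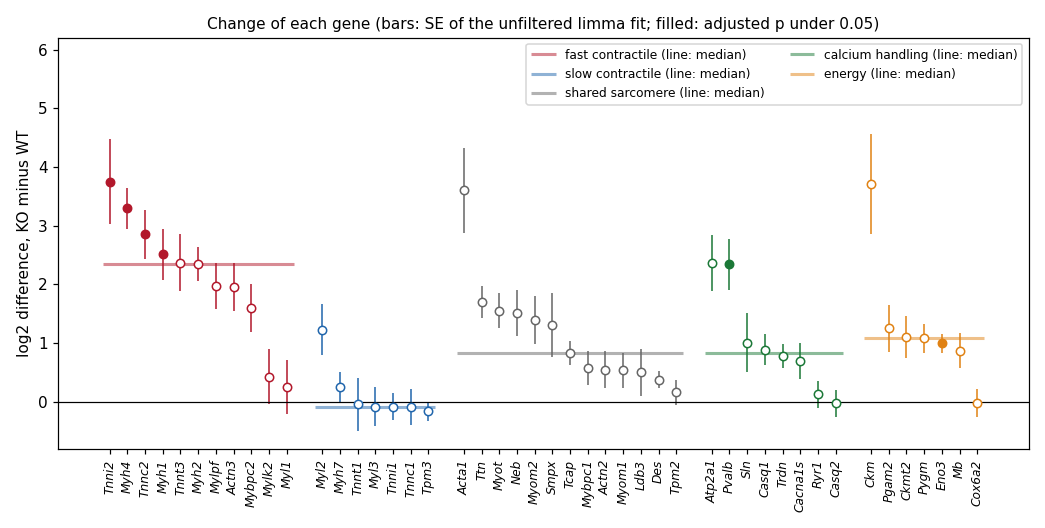
Log2 difference between KO and WT for each gene, by group, with bars for the SE of the limma fit with no filter and horizontal lines for group medians. Filled points passed an adjusted p of 0.05 after the filter. The medians are 2.35 for fast contractile, -0.08 for slow contractile, 0.83 for shared sarcomere, 0.83 for calcium handling and 1.08 for energy genes.

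Calcium handling genes divided in a similar way. Pvalb encodes parvalbumin, the soluble calcium buffer of fast fibres, and stood at 96.4 and 51.6 in WT and at 627 and 287 in KO. Its mean rose from 74.0 ± 31.7 to 457 ± 240 (SD, n = 2), a log2 difference of 2.34 ± 0.40 (SE) (limma adjusted p = 0.0451). Left without a filter or without a trend, averaged over all probe sets, or without either WT array, the gene was not called. Atp2a1, the calcium pump of the fast sarcoplasmic reticulum, stood at 208 and 70.3 in WT and at 874 and 558 in KO. Its difference was 2.36 ± 0.44 (SE), just outside the threshold (limma adjusted p = 0.0527). Casq1, the calcium store protein of fast fibres, was at 104 and 75.2 in WT and 188 and 168 in KO (0.89, limma adjusted p = 0.108). Casq2, its slow and cardiac counterpart, was level, at 123 and 118 in WT and 115 and 122 in KO (-0.02).

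Cacna1s, the voltage sensor of the transverse tubule, stood at 18.4 and 35.4 in WT and 55.3 and 49.7 in KO. Trdn, which anchors calsequestrin to the release channel, stood at 4.44 and 4.21 in WT and 18.5 and 19.2 in KO. Neither overlapped, and neither reached the filter. Ryr1, the release channel, was at 123 and 156 in WT and 156 and 150 in KO (0.13, limma adjusted p = 0.797). Sln, a small inhibitor of the calcium pump, was high on KO replicate 2 alone, at 53.5 against 8.40 on KO replicate 1 and 7.04 and 2.19 in WT. Over the 8 calcium handling genes 6 did not overlap and the median was 0.83.

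Among 7 energy genes 6 were higher without overlap (85.7%, against 23.3% of all named genes) and the median was 1.08. Eno3, the muscle enolase of glycolysis, stood at 354 and 293 in WT and at 656 and 664 in KO. Its mean rose from 324 ± 43 to 660 ± 5.94 (SD, n = 2), with a log2 difference of 1.0 ± 0.17 (SE) (limma adjusted p = 0.0434). The call was lost with no filter, with no trend and without WT replicate 1, WT replicate 2 or KO replicate 1, whereas the difference stayed between 0.87 and 1.13 with an array left out. Ckm, the muscle creatine kinase that buffers ATP, was at 152 and 9.90 in WT and at 1122 and 638 in KO. The WT arrays lay further apart than those of any other member (log2 difference 2.70), and the difference between genotypes was 3.71 ± 0.79 (SE) (limma adjusted p = 0.0642). Pygm, muscle glycogen phosphorylase, was at 83.3 and 90.9 in WT and 180 and 225 in KO (1.08, limma adjusted p = 0.0627). Pgam2, the muscle phosphoglycerate mutase, was at 30.1 and 8.44 in WT and 78.2 and 51.9 in KO (1.25). Ckmt2, the creatine kinase of muscle mitochondria, was at 18.5 and 10.1 in WT and 68.4 and 33.2 in KO (1.10). Mb, the oxygen store myoglobin, was at 61.6 and 72.8 in WT and 110 and 168 in KO (0.87). Of these 4 Pygm alone entered the test, and all 4 were higher on both KO arrays. Cox6a2, the striated muscle form of a cytochrome oxidase subunit, was level, at 153 and 128 in WT and 151 and 127 in KO (-0.02).

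Related genes not restricted to striated muscle mostly differed less. Of 13 pairs fixed for this comparison, 11 had both genes on the array. The muscle gene had the larger log2 difference in 9 of the 11, with a median of 1.25 against -0.12 for its counterpart. The 11 counterparts ranged from -0.43 to 0.43, and 0 passed the test in limma. By unadjusted limma p with the filter, Pygb (0.0166) and Myl6 (0.0466) were under 0.05, with differences of 0.43 and 0.33. These 2 counterparts were higher without overlap and 4 were lower, against 23.3% and 24.8% of all named genes. Ckb differed by 0.09 against 3.71 for Ckm, Actb by -0.17 against 3.60 for Acta1, Myh9 by -0.29 against 3.30 for Myh4, and Atp2a2 by -0.13 against 2.36 for Atp2a1. The exceptions were Myl1 with 0.25 against 0.33 for Myl6, and Cox6a2 with -0.02 against -0.02 for Cox6a1. No test was made between probe sets of different genes.

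The members also differed between arrays of one genotype. The median absolute log2 difference between the WT arrays was 0.47 over the members and 0.19 over all named genes. Between the KO arrays it was 0.45 and 0.22. Fast contractile genes varied most, at 0.84 and 0.79, and were higher on WT replicate 1 than on WT replicate 2 in 9 of 11 and on KO replicate 1 than on KO replicate 2 in 10 of 11. In 21 of the 46 members, or 45.7%, the arrays ran in one order, from WT replicate 2 through WT replicate 1 and KO replicate 2 to KO replicate 1. All named genes showed this order in 6.71%. It was seen in 8 of 11 fast and in 0 of 7 slow contractile genes. The order was noticed after the values were seen. Across the 46 genes, which share the 4 arrays, Pearson's r between the difference of the WT arrays and that of the KO arrays was 0.42, against 0.05 across all named genes.

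**Figure D4:**
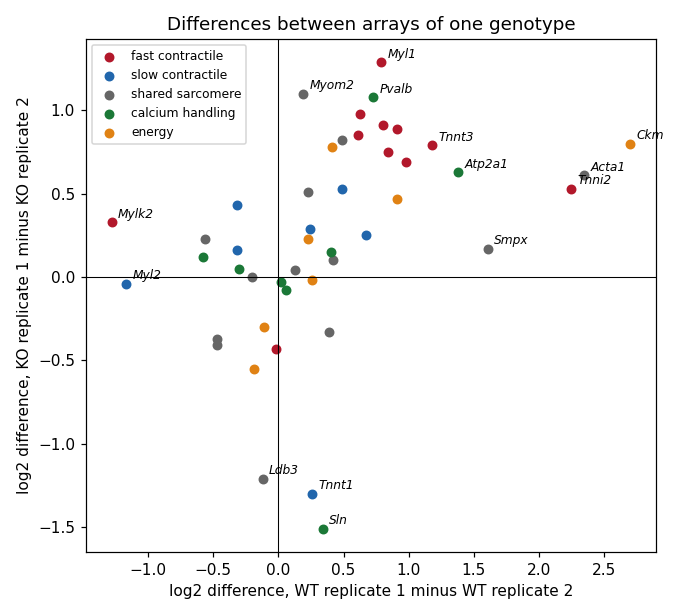
Log2 difference between the KO arrays (vertical) against that between the WT arrays (horizontal), 1 point for each of the 46 genes, coloured by group. Of the 46, 26 lie in the upper right, higher on replicate 1 of both genotypes, and Ckm, Acta1 and Tnni2 lie furthest right. Ldb3, Tnnt1 and Sln are high on KO replicate 2.

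Probe sets of one gene did not always give one direction. Of the 46 members 17 had several probe sets, and in 3 (Mb, Des and Tpm3) another probe set differed the opposite way by more than 0.5. The other Mb probe set stood at 28 and 48.5 in WT and 7.46 and 5.26 in KO (-1.25). The other Des probe set stood at 51.0 and 70.7 in WT and 30.7 and 33.6 in KO (-0.66). A probe set of Tpm3 stood at 916 and 633 in WT and 1899 and 1216 in KO (0.98, limma adjusted p = 0.105), against -0.16 for the brightest. One of Tpm2 stood at 150 and 172 in WT and 336 and 337 in KO (1.0, limma adjusted p = 0.0507), against 0.16. For the myosins and troponins another probe set was also higher in KO, with 3.03 for Myh1, 1.18 for Myh4 and 3.03 for Tnni2. The remaining probe set of Myh1 (0.08) and of Tnni2 (0.00) was dim on every array, at most 4.62 for Myh1 and 7.02 for Tnni2. Tpm2, Tpm3 and the myosin heavy chain genes have close relatives or several transcripts, so cross-reading between probe sets was not tested. For Ttn the 6 probe sets ran from -0.09 to 2.81. Another Ldb3 probe set stood at 30.6 and 4.74 in WT and 70.5 and 77.7 in KO (1.53). The remaining Ldb3 probe set overlapped, at 176 and 236 in WT and 149 and 277 in KO. Another of Ryr1 gave 0.86, against 0.13 for the brightest. Another of Ckm gave 0.30 with overlap, against 3.71. The other Myom2 probe sets gave 0.17, 0.01 and 1.47, against 1.39.

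Other skeletal muscle genes, drawn up as a separate list, were higher in KO more often than lower. Of 66, 59 were on the array and 19 entered the test, and 0 passed in either direction in limma. At an unadjusted limma p under 0.05 with no filter 12 were higher and 2 lower, where all named genes gave 8.05% and 8.89%. Without overlap, 28 were higher (47.5%, against 23.3% of all named genes) and 6 lower (against 24.8%), and the median log2 difference was 0.34. Apobec2, a muscle-restricted member of the cytidine deaminase family, stood at 13.6 and 3.37 in WT and 83.4 and 93.1 in KO (2.12, limma adjusted p = 0.109 with no filter). Fhl3, a LIM domain protein, stood at 6.49 and 18.6 in WT and 24.9 and 145 in KO (1.54). In that list 17 genes had a negative difference. The 2 lower at the unadjusted limma p were Cox7a1 (-0.87) and Asb2 (-0.60), each lower on both KO arrays. Cox7a1 and Cox8b (-0.14, with overlap) also stand in the brown adipocyte list.

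Of 13 myogenic and satellite cell genes 4 entered the test and 0 passed in limma. Without overlap 5 were higher (38.5%, against 23.3% of all named genes) and 0 lower (against 24.8%), and the median was 0.32. At an unadjusted limma p under 0.05 with no filter 1 of the 13 was higher. All named genes gave a similar share, 8.05%, so this count is no result about the list. The 1 gene was Mef2d, a partner of the myogenic factors. It was bright, at 1315 and 1247 in WT and 1662 and 1729 in KO (0.40, limma adjusted p = 0.163). Vgll2 stood at 35.4 and 39.8 in WT and 69.9 and 66.0 in KO (0.65), and Myf6, a regulator of mature fibres, at 21.6 and 10.4 against 24.0 and 32.0 (0.48). Of 8 genes of developing muscle 0 passed the filter and the median was 0.09, with Ncam1 at -1.47 and Myl4 at -0.31. Of 8 cardiac genes 0 passed the filter and the median was 0.11. The largest cardiac differences were Tnni3, the heart troponin I, at 171 and 151 in WT against 66.8 and 68.0 in KO (-1.08), and Myh6 (0.62).

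Of 16 genes of smooth muscle and myoepithelial cells, Oxtr, the oxytocin receptor, fell from 3000 and 2621 in WT to 1394 and 1631 in KO (limma adjusted p = 0.0425). The other 15 gave no call, and the list's median was -0.26. Without overlap 7 of the 16 were lower (against 24.8% of all named genes) and 1 higher (6.25%, against 23.3%). At an unadjusted limma p under 0.05 with no filter 2 were lower and 1 higher, against 8.89% and 8.05%. The 1 higher was Des, also a member. The summed signal of the 16 was 42353 and 50264 in WT and 32365 and 43800 in KO. Brown adipocyte genes had a median of -0.56 over 10. Without overlap 5 were lower (against 24.8% of all named genes) and 0 higher (against 23.3%). The same counts had an unadjusted limma p under 0.05 with no filter, against 8.89% lower and 8.05% higher. Of these Ucp1, the uncoupling protein that releases heat, fell from 4614 and 9828 in WT to 1038 and 1066 in KO (-2.66, limma adjusted p = 0.0228). The summed signal of that list was 22705 and 26183 in WT and 14536 and 17424 in KO. White adipocyte genes had a median of 0.11, with 0 of 8 past the test in limma (0 in either direction also at an unadjusted p under 0.05 with no filter). Their sums were 98472 to 106271 in WT and 105715 to 108199 in KO. Without overlap 3 were higher (37.5%, against 23.3% of all named genes) and 0 lower (against 24.8%). Lep stood at 3615 and 2200 in WT and 3808 and 717 in KO (-0.76), and Cidec differed by 0.28. Of 10 epithelial genes Krt7 rose from 1207 and 1249 in WT to 2120 and 2953 in KO (limma adjusted p = 0.0484), 9 did not pass, and the median was -0.23. At an unadjusted limma p under 0.05 with no filter 2 were higher and 4 lower, against 8.05% and 8.89% of all named genes. The 4 lower were Epcam (-0.78), Cdh1 (-0.50), Cldn7 (-0.90) and Esrp1 (-0.87). Without overlap 2 were higher (20.0%, against 23.3% of all named genes) and 4 lower (against 24.8%). The summed signal of the 10 epithelial genes was 38815 and 40271 in WT and 29038 and 45725 in KO. The epithelial sum was lowest on KO replicate 1 and highest on KO replicate 2. The part of these other cell types in the muscle differences was not tested.

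Epidermal, tendon and fibroblast, and nerve genes gave medians of -0.19, -0.04 and 0.18, over 9, 10 and 5 genes, and 0 passed in limma. At an unadjusted limma p under 0.05 with no filter, 1 gene was higher in each of these 3 lists, and 1 nerve gene was lower. All named genes gave 8.05% higher and 8.89% lower, so 1 gene in lists this small is no result about them. Krt15 in the epidermal list differed chiefly between the KO arrays, at 201 and 2395 against 1595 and 1763 in WT. Sprr1a, of the cornified envelope, was at 94.3 and 75.4 in WT and 206 and 229 in KO (1.22, limma adjusted p = 0.0501). Pdgfra (0.30) and Fmod (-0.22) led the fibroblast list, and Sox10 (-1.22) and Mbp (0.63) the nerve list.

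**Figure D5:**
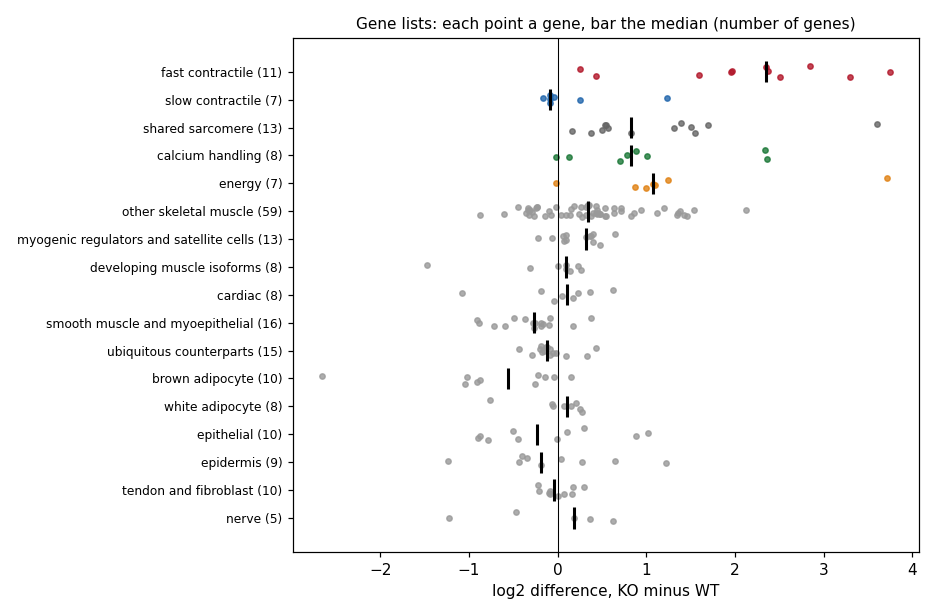
Log2 difference between KO and WT for every gene of each list (1 point for each gene, with small vertical offsets) and list medians (black bars), with the number of genes in brackets. Fast contractile genes lie furthest right with a median of 2.35, other skeletal muscle genes have 0.34, and brown adipocyte genes lie furthest left with -0.56.

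Promoter windows were found for 35 of the 46 members. A CArG box stood in 5 of the 35 (Acta1, Myh4, Myl3, Ldb3 and Myom1), or 14.3%, against 1.81% of 27025 genes with windows of the same length. TATAAA stood in 7 (20.0% against 15.7%), among them 4 of 7 fast contractile genes. The E-box, a short and common motif, stood in 30 (85.7% against 75%), in 5 of 7 fast and 7 of 7 slow genes. The MEF2 motif stood in 1, Ttn (2.86% against 0.636%). The STAT5 motif TTCNNNGAA stood in 2, Ckmt2 and Atp2a1 (5.71% against 9.55%). Both strands were searched, motifs can overlap, and a gene counted once if any of its windows held the motif. The shares are descriptions of these windows and were not tested.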

How the data were processed

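Expression was measured on 4 Affymetrix arrays of mouse mammary RNA, 2 per genotype. TRIzol extracts of total RNA carried a biotin label, per the labels' protocols. Deposited were linear probe set intensities, and the submitters' processing notes name MAS5. Neither its version and settings nor a genome build is given in the sources used here. For every array the mean of the signals was 500 after trimming 2% at each end, as read from the deposited values. No detection call was used, so whether a dim signal exceeds background is not known. Precision is limited by having 4 arrays.

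Of 45101 probe sets 64 controls were left out. Symbols came from the platform annotation, with 34945 probe sets of 1 symbol, 932 of several (not used) and 9160 unnamed here. An Entrez identifier matched for 34741, and 0 symbols changed. Signals were taken as log2(signal + 16). The genotypes were compared in R 4.3.3 with limma 3.58.1 (lmFit, eBayes with a variance trend), over the 22519 probe sets (11360 genes) at or above the median mean log2 of 7.15, with Benjamini-Hochberg adjustment over them and a threshold of 0.05. The fit was tested on simulated data. Members below the filter are given from the same fit with no filter. Each probe set has 2 residual degrees of freedom.

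The members, gene lists and pairs were chosen with earlier results of these data known. Every member could be named. From other lists the rule named up to 4 genes past the threshold by smallest p or, with none, up to 2 by largest absolute difference. Other genes were named after their values were seen. Replicates were numbered in order of deposit and do not pair animals. Promoter windows were RefSeq's (GRCm38.p6), and the fast and slow pairs by family were set side by side after the fits. Alternatives were other pseudocounts, scalings, filters and probe set rules, no variance trend, and leaving out each array.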

Additional observations from a re-analysis of the deposited data

How the results depend on the processing

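The number of members called higher was 6. It was 10 with a pseudocount of 64, 0 with no filter, 0 with a filter at the 75th percentile, 2 when all probe sets of a gene were averaged and 2 with no variance trend. It ran from 2 to 9 with 1 array left out. No call of the 6 was kept in every setting in which it was tested. The count without overlap was 33 and ran from 33 to 37, and that of members lower without overlap was 0, 1 averaged over all probe sets, and 2 to 5 with 1 array left out, where 3 arrays make separation easier.

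With pseudocounts of 1 and 64 the median log2 difference was 1.46 and 0.62 for the members, 1.45 and 0.40 for calcium handling, and the fast minus slow gap was 2.85 and 1.62. At 64 it was also 1.59 for fast contractile, 0.63 for shared sarcomere and 0.64 for energy genes. Averaged over all probe sets it was 0.69 for calcium handling, and the fast minus slow gap was 1.95. With 1 array left out it ran from 1.79 to 2.46 for fast contractile genes, from 0.90 to 1.13 for energy genes, and from 1.96 to 2.39 for the fast minus slow gap. Median centring moved the median of all genes by under 0.1, to 0.06, and in these settings no group median changed sign except that of the slow genes, which ran from -0.21 to 0.09 with 1 array left out.

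The differences of 14 members changed sign in some setting, 7 that entered the test and 7 below the filter, and 0 of them were called. With 1 array left out Myl1 ran from -0.39 to 0.90, Tpm2 from -0.07 to 0.40, Tpm3 from -0.31 to 0.00, Ldb3 from -0.11 to 1.10 (called without KO replicate 1), Ryr1 from -0.02 to 0.28 and Cox6a2 from -0.13 to 0.10. Tpm3 was 0.02 averaged over its probe sets, where Mb was -0.19 and Des also turned negative. Among dim members Myl3, Mylk2, Tnnt1, Tnni1, Tnnc1 and Casq2 changed sign. Cox6a2 was 0.06 after quantile normalization and 0.07 after median centring. The causes were not tested. No paired analysis was possible because the labels give the 2 genotypes no shared replicate numbers. As for signal over background, 18 members lay below the array medians on all 4 arrays, where small changes may be missed.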
